A study of Zea mays with 12 samples.

Results

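The maize AP2 genes gl15, rap2.7, ids1 and sid1 were followed in shoot apices that lack the TOO MANY LATERALS genes and in their wild-type siblings. They were chosen as AP2 factors targeted by the microRNA miR172, by their B73 version 4 gene IDs: Zm00001d046621 (gl15), Zm00001d010987 (rap2.7), Zm00001d034629 (ids1) and Zm00001d019230 (sid1). All 4 were found among the 39324 gene IDs of the expression table, and all 4 were among the 22772 genes with enough counts to be tested. The pairing of these IDs with names came with the choice of the genes and is not given by the expression table. RNA was sequenced from inbred line B104 seedlings dissected after 7 days, from tissue that held the shoot apical meristem, leaf primordia of plastochrons 0 to 5 (counted from the youngest outward) and leaf sheath, with root, embryo and coleoptile removed. The tml1;tml2 mutants were homozygous for CRISPR/Cas9 loss-of-function alleles of both genes and segregated independently of the editing transgene. The wild types were segregating siblings in the same B104 background. Each genotype had 3 biological samples, numbered 2, 3 and 4, and each sample was sequenced in 2 runs that were summed. The labels speak of 3 individual apices per genotype pool and do not make clear whether 1 sample is 1 apex.

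AP2 factors of this class are transcriptional regulators whose messages are bound by miR172, which blocks their translation and can promote their cleavage. In grass shoots miR156 is high in the first leaves and miR172 rises later, so AP2 proteins are high early and decline as the plant passes from juvenile to adult leaves. GLOSSY15 is the member known for juvenile leaf identity: it keeps juvenile wax and epidermal traits in the first leaves. The other members are known from other stages. RAP2.7 delays flowering, and INDETERMINATE SPIKELET1 and its close relative SISTER OF INDETERMINATE SPIKELET1 act in spikelet and floral meristems. The name of a juvenile-phase group therefore describes the known role of gl15 better than that of the other members.

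Total counts per sample were 29504680 to 31980536 in the wild types and 27213052 to 29968419 in the mutants, so that 3 counts made 0.0971 to 0.106 CPM. CPM stands for a gene's counts among 1000000 counts of its sample, here after TMM scaling between samples. The genotypes were not fully parted on the first principal component of all tested genes, which held 46% of the variance. Mutant 4 stood apart there with a score of 116, and wild types 2 and 4 had the lowest scores at −84 and −64.5. The other samples lay between them, with mutant 2 at −3.21, wild type 3 at 9.88 and mutant 3 at 26.2. Neither tml1, tml2 nor markers of the labelled tissue were analysed here, since the expression table does not name its IDs, and the genotype and tissue of a sample rest on its label. In bulk tissue, fewer cells that express a gene and less RNA of that gene per cell cannot be told apart.

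The study set mutant against wild type to find expression that depends on TML function in tissue where veins form, and that comparison is given here for the AP2 genes. gl15 was lower in the mutant and rap2.7 was higher, and in TMM-scaled CPM the groups did not overlap for either gene. Of all tested genes, 9.03% had no overlap with the mutant below and 10.3% with the mutant above. ids1 and sid1 were lower by smaller amounts. None of the 4 genes passed edgeR's quasi-likelihood test at an adjusted p of 0.05, where 0% of all 22772 genes passed. At an unadjusted edgeR p under 0.05 there were 2 of 4 members, beside 12.2% of all genes. These were rap2.7, higher in the mutant like 6.92% of all genes, and ids1, lower in the mutant like 5.31%. DESeq2 on the 6 samples also called 0 of 4, beside 2.72% of the 24166 genes that it gave an adjusted p. Of those 24166 genes, 1.92% were called higher and 0.807% lower in the mutant. The median log2 fold change, mutant over wild type, was −0.35 over the 4 members and 0.005 over all tested genes, and the median absolute values were 0.58 and 0.30.

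**Figure D1:**
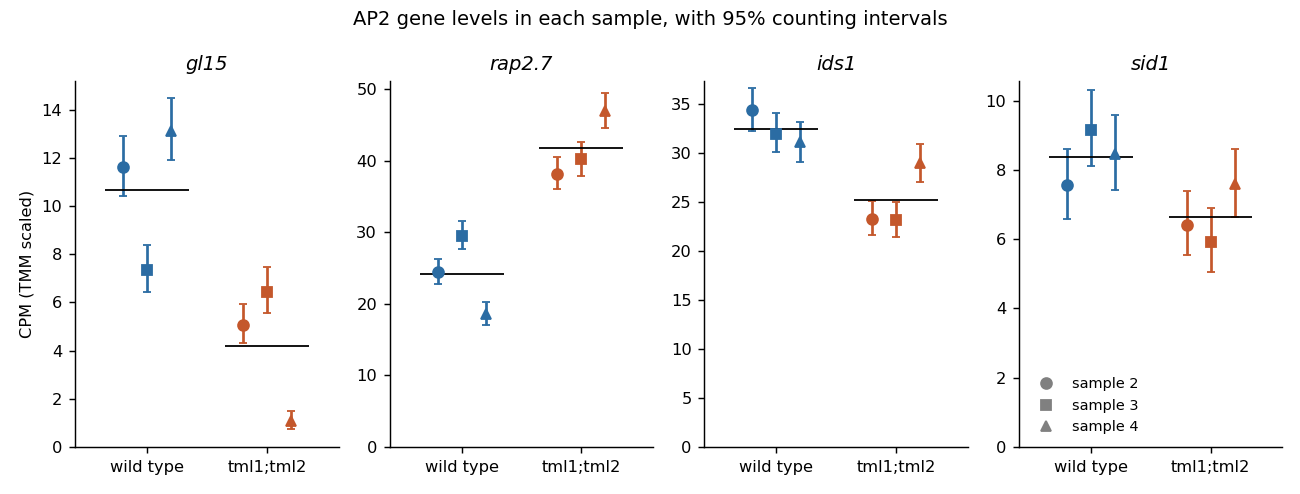
CPM after TMM scaling (y axis from 0) of each AP2 gene in 3 wild-type samples (blue) and 3 tml1;tml2 mutant samples (orange), with 1 marker shape per sample number. Bars on the points are 95% Poisson counting intervals and black lines are group means. gl15 lay at 7.35 to 13.1 CPM in the wild types and 1.07 to 6.45 CPM in the mutants, and rap2.7 at 18.6 to 29.5 CPM and 38.2 to 47 CPM.

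gl15 encodes the factor that maintains juvenile epidermal identity. Its levels were 11.6, 7.35 and 13.1 CPM in wild types 2, 3 and 4. In mutants 2, 3 and 4 its levels were 5.07, 6.45 and 1.07 CPM. The groups did not overlap, but wild type 3 and mutant 3 lay close together, and mutant 4 was far below every other sample. The 33 counts of mutant 4 gave a 95% Poisson interval of 0.735 to 1.5 CPM, so counting error alone did not bring it near the other mutants. The intervals of wild type 3, 6.42 to 8.39 CPM, and of mutant 3, 5.55 to 7.46 CPM, did overlap. Such intervals cover counting error only.

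The mean of gl15 was 10.7 ± 3 CPM in the wild types and 4.2 ± 2.8 CPM in the mutants (SD, n = 3 each), or 2.55-fold higher in the wild types. The log2 fold change, mutant over wild type, was −1.35 (SE 0.62) with a 95% interval of −2.84 to 0.14, and edgeR gave an adjusted p of 0.421. The size depended on 1 library. Without mutant 4 the mutant mean was 5.76 CPM and the wild types were 1.86-fold higher. The log2 fold change was then −0.89 (SE 0.32), with an unadjusted edgeR p of 0.0334 and an adjusted p of 0.645. With all samples the unadjusted p was 0.069 by edgeR and 0.0287 by DESeq2, and the DESeq2 adjusted p was 0.254. DESeq2 on the 6 samples gave 9.55% of all 39324 genes an unadjusted p under 0.05. Of the tested genes, 12.2% had an unadjusted edgeR p under 0.05 with all samples and 7.34% without mutant 4. The spread of gl15 within genotypes, an SD of 1.02 on the log2 CPM scale, exceeded that of 89.9% of the 2495 other genes within 0.5 log2 CPM of its mean level. That spread was 0.44 among the wild types and 1.37 among the mutants. The samples with the most gl15 were wild types 2 and 4, at the negative end of the first principal component, and the sample with the least was mutant 4, at its positive end. Mutant 2 had less gl15 than wild type 3 and mutant 3 but lay below both on that component. The part of that component in the gl15 difference was not tested.

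rap2.7 encodes a repressor of flowering. Its levels were 24.5, 29.5 and 18.6 CPM in wild types 2, 3 and 4. In mutants 2, 3 and 4 its levels were 38.2, 40.2 and 47 CPM. All mutants lay above all wild types, and no counting interval of a mutant reached that of a wild type: the highest wild-type bound was 31.5 CPM and the lowest mutant bound 36 CPM. Wild types 4 and 2, at the negative end of the first principal component, had the least rap2.7. Mutant 4, at its positive end, had the most. Mutant 2 exceeded wild type 3 in rap2.7 but lay below it on that component. The part of that component in the rap2.7 difference was not tested.

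The mean of rap2.7 was 24.2 ± 5.47 CPM in the wild types and 41.8 ± 4.61 CPM in the mutants (SD, n = 3 each), or 1.73-fold higher in the mutants. The log2 fold change was 0.79 (SE 0.20) with a 95% interval of 0.30 to 1.27. Its unadjusted edgeR p was 0.00676, and 1.84% of the tested genes had a lower one; the edgeR adjusted p was 0.355. DESeq2 on the 6 samples gave 0.78 (SE 0.24) and an adjusted p of 0.0514, just beyond the threshold. With wild type 3 left out, the sample with the highest wild-type level, DESeq2 gave 0.94 and an adjusted p of 0.00633, while edgeR gave 0.95 and an adjusted p of 0.267. With any other sample left out, the DESeq2 adjusted p was 0.0685 to 0.361. Without mutant 4 the mutants were 1.62-fold higher, with an adjusted p of 0.219 by DESeq2 and 0.622 by edgeR. The SD of rap2.7 within genotypes was 0.26 on the log2 CPM scale, larger than that of 54.9% of the 4007 other genes at a like level.

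ids1 encodes the AP2 factor that limits the number of florets in a spikelet. Its levels were 34.4, 32 and 31.1 CPM in wild types 2, 3 and 4. In mutants 2, 3 and 4 its levels were 23.3, 23.2 and 29 CPM. Mutants 2 and 3 were nearly equal and well below the wild types, and mutant 4 came close to wild type 4. Whether the groups parted depended on the scaling. They did not overlap in CPM after TMM scaling, but before it mutant 4, the highest mutant, had 29.9 CPM and the lowest wild type had 28.5 CPM. In TPM, which also divides by transcript length, the mutants reached 19.8 and the wild types went down to 16.7.

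The mean of ids1 was 32.5 ± 1.71 CPM in the wild types and 25.1 ± 3.32 CPM in the mutants (SD, n = 3 each), 1.29-fold higher in the wild types. The log2 fold change was −0.37 (SE 0.15) with a 95% interval of −0.73 to −0.02, and edgeR gave an unadjusted p of 0.0428 and an adjusted p of 0.404. On the log2(TPM + 1) scale limma gave −0.21 (SE 0.18) with an adjusted p of 0.57. Leaving out mutant 4 moved the edgeR value to −0.49, with an adjusted p of 0.576, and DESeq2 without it gave −0.49 and an adjusted p of 0.0529. Within genotypes ids1 varied little, with an SD of 0.14 on the log2 CPM scale that exceeded only 19.6% of the 4042 other genes at a like level.

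sid1 encodes the close relative of ids1 that acts with it in the inflorescence. Its levels were 7.55, 9.15 and 8.45 CPM in wild types 2, 3 and 4. In mutants 2, 3 and 4 its levels were 6.41, 5.92 and 7.58 CPM. Mutant 4 lay just above wild type 2, so the groups overlapped, and the other mutants lay below all wild types. As for ids1, mutant 4 had the highest value of the mutants.

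The mean of sid1 was 8.38 ± 0.805 CPM in the wild types and 6.64 ± 0.85 CPM in the mutants (SD, n = 3 each), 1.26-fold higher in the wild types. The log2 fold change was −0.34 (SE 0.20) with a 95% interval of −0.81 to 0.14, and edgeR gave an adjusted p of 0.486. Its SD within genotypes was 0.16 on the log2 CPM scale, larger than that of 10.4% of the 2760 other genes at a like level. Reads that match both ids1 and sid1 would be divided between them by the estimation of counts, and how many reads did so was not measured here.

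Read together, 3 of 4 members had groups that did not overlap in TMM-scaled CPM, rap2.7 with the mutant above and gl15 and ids1 with the mutant below. Of all tested genes 19.3% had no overlap, 10.3% with the mutant above and 9.03% with the mutant below. An exact permutation test of 1 gene in 3 against 3 samples cannot give a two-sided p below 0.1. Each of the 4 genes kept its direction in all 25 alternative fits, which reuse the same samples. In 12 of these fits 1 sample was left out, which can hardly reverse a gene whose groups do not overlap. The log2 fold changes ran from −1.82 to −0.89 for gl15, 0.63 to 0.97 for rap2.7, −0.49 to −0.21 for ids1 and −0.45 to −0.25 for sid1.

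**Figure D2:**
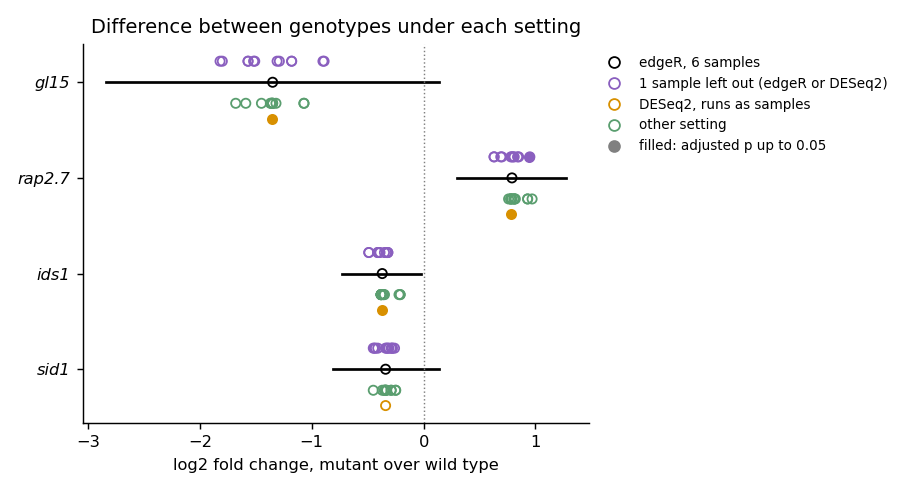
Log2 fold change, mutant over wild type (x axis), of each AP2 gene under each of the fits. Black points with lines are edgeR's quasi-likelihood fit of 6 samples with its 95% interval, purple points leave out 1 sample, orange points count runs as samples, green points are the remaining settings, and filled points have an adjusted p of up to 0.05. Points stay on 1 side of 0 for each gene, and the edgeR intervals of gl15 and sid1 include 0.

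gl15 and rap2.7 ran in nearly opposite order over the samples. Among the wild types gl15 was highest in sample 4 and lowest in sample 3, and rap2.7 was highest in sample 3 and lowest in sample 4. Among the mutants, mutant 4 had the least gl15 and the most rap2.7, while mutant 3 exceeded mutant 2 in both genes. The opposite order was therefore present among wild types as well as between genotypes, and both genes took their extreme values in wild type 4 and mutant 4. ids1 and sid1 did not follow that order, since mutant 4 was the mutant nearest to the wild types in both.

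**Figure D3:**
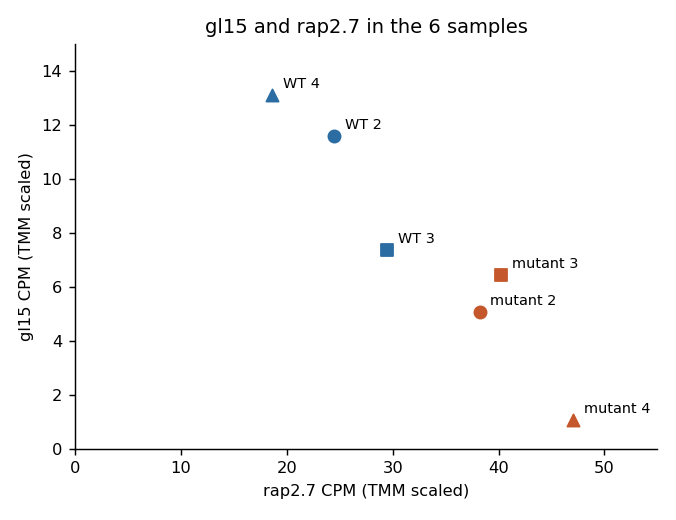
CPM after TMM scaling of rap2.7 (x axis) and gl15 (y axis) in the 6 samples, 1 point per sample, wild types in blue and tml1;tml2 mutants in orange. Wild type 4, with 18.6 CPM of rap2.7 and 13.1 CPM of gl15, and mutant 4, with 47 and 1.07 CPM, lie at the ends.

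The members were compared with each other in TPM (the share of a gene among 1000000 transcripts), which is scaled by transcript length. In the wild types ids1 was at 19 ± 2.02 TPM, rap2.7 at 18.2 ± 5.35, sid1 at 5.97 ± 1 and gl15 at 5.81 ± 1.26 TPM (SD, n = 3 each). ids1 and rap2.7 did not differ beyond their spread there, nor did sid1 and gl15. In the mutants the order was rap2.7 at 34.9 ± 4.79 TPM, ids1 at 16.4 ± 2.9, sid1 at 4.82 ± 0.495 and gl15 at 2.53 ± 1.65 TPM, and no ranges of neighbours overlapped. Over all samples, the mean TPM of rap2.7 exceeded that of 69.7% of tested genes, ids1 that of 58.3%, sid1 that of 27.9% and gl15 that of 23.5%.

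**Figure D4:**
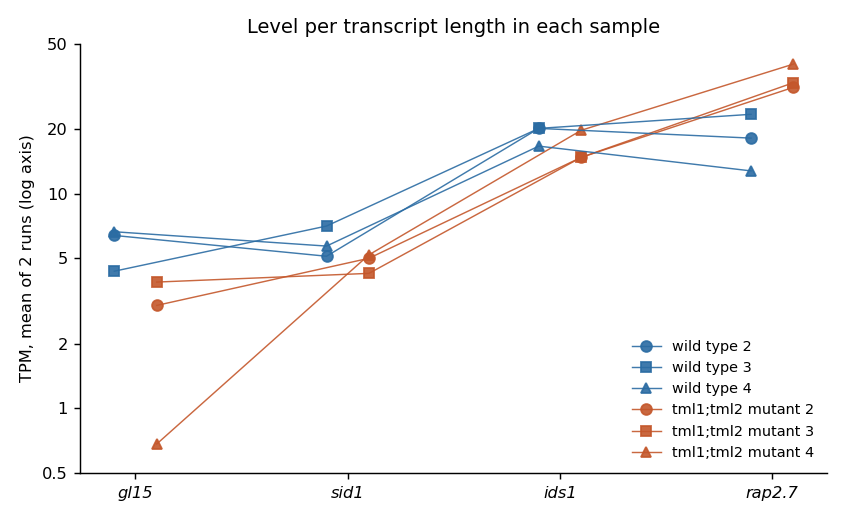
TPM, the mean of 2 runs, of each AP2 gene (log y axis) in each sample, with lines joining the values of 1 sample, wild types in blue and tml1;tml2 mutants in orange. rap2.7 lies at 12.8 to 23.5 TPM in the wild types, around ids1, and at 31.4 to 40.3 TPM in the mutants, above ids1.

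Between the runs of a sample, unscaled CPM differed by up to 1.28-fold for gl15, 1.27-fold for sid1, 1.18-fold for ids1 and 1.08-fold for rap2.7. In 23 of 24 pairs of gene and sample the exact binomial 95% interval of the share of counts from run 2 held the share of the whole library. The exception was ids1 in wild type 4, with 509 counts in run 1 and 404 in run 2. Its share from run 2 was 44.2% (interval 41% to 47.5%), where the library had 48.3%. Without TMM scaling, run 2 placed this wild type at 26.1 CPM of ids1, below the 29.3 CPM of mutant 4, and run 1 placed it at 30.8 CPM, above the 30.4 CPM of mutant 4.

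The average transcript length, an estimate that moves with the mix of a gene's transcripts, varied less for gl15, rap2.7 and ids1 than for sid1. For gl15 it was 1774 ± 10.7 bases in the wild types and 1782 ± 3.92 in the mutants (SD, n = 3 each). For rap2.7 it was 1313 ± 16.4 and 1306 ± 14.1 bases, and for ids1 1670 ± 11.4 and 1672 ± 8.99 bases. Between runs of 1 sample, the length of rap2.7 and of ids1 moved by up to 1.03-fold. These shifts exceeded those of 68.1% and 65.9% of genes with a like count, and the shift of gl15 exceeded that of 9.3%. For sid1 the average length ranged from 1149 to 1660 bases over the 12 runs and moved by up to 1.41-fold between runs of 1 sample. That shift exceeded the one of 97.3% of the 2771 other genes with a like count. In mutant 2, sid1 had 97 and 95 counts in the runs but 4.1 and 5.91 TPM, at lengths of 1621 and 1180 bases. In wild type 3 run 1 gave 128 counts and 7.56 TPM, and run 2 gave more counts, 147, but 6.6 TPM. The sid1 means were 1398 ± 69.1 bases in the wild types and 1517 ± 126 in the mutants (SD, n = 3 each), a smaller gap than that between the runs of mutant 2.

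**Figure D5:**
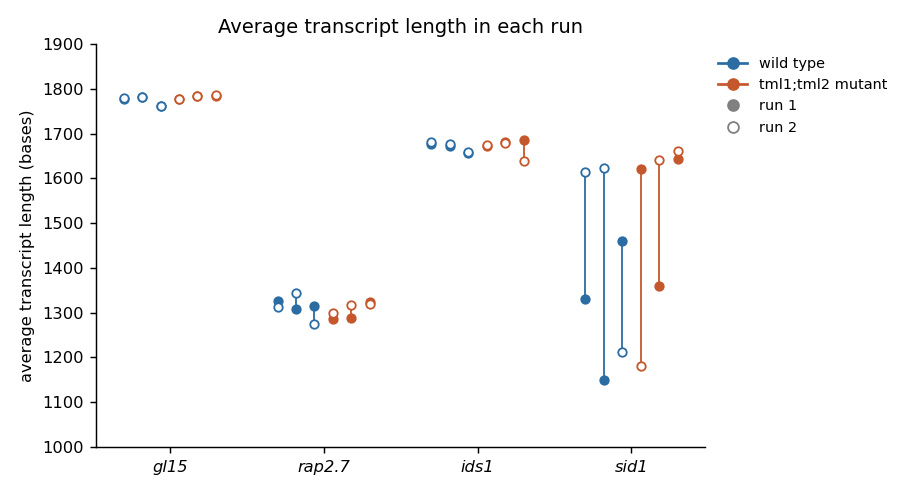
Average transcript length in bases (y axis, not from 0) of each AP2 gene in run 1 (filled) and run 2 (open) of each sample, with a line joining the runs of a sample, wild types in blue and tml1;tml2 mutants in orange. Runs nearly coincide for gl15, rap2.7 and ids1, and spread from 1149 to 1660 bases for sid1.

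The authors' deposited table of transcripts with an adjusted p of up to 0.05 lists 3 of the 4 genes, beside 26.6% of all 22772 genes tested here. Which genotype is the numerator of its fold changes is not named in the header. For 92.2% of 7196 transcripts, signs in the authors' deposited table were opposite to those of mutant over wild type in the gene counts, so its fold changes are taken here as wild type over mutant. Under that convention the authors' deposited table lists a log2 fold change of 1.36 (SE 0.458, adjusted p 0.0314) for gl15 transcript T001 and 0.42 (SE 0.0735, adjusted p 1.33e-06) for ids1 transcript T001, both lower in the mutant. For rap2.7 the authors' deposited table gives −0.75 (SE 0.14, adjusted p 7.67e-06) for T001 and −1.20 (SE 0.296, adjusted p 0.00134) for T002, both higher in the mutant. T001 carried most of the rap2.7 signal there, with a mean of 465 normalized counts beside 21.7 for T002. No sid1 transcript is in the list.

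DESeq2 was also run here on the 12 run columns as if each run were a sample. That fit called 3 of 4 members, beside 24.2% of the 24808 genes that it gave an adjusted p. The DESeq2 adjusted p was 0.0119 for gl15, 3.07e-06 for rap2.7 and 0.002 for ids1, and 0.0509 for sid1. The SE of gl15 was 0.43 in that fit and 0.62 in DESeq2 on the 6 samples, and the fold changes were the same at −1.36. Runs of 1 library share their apices and their RNA, so these p-values do not set the genotypes against the spread between samples. The deposited table rests on these libraries too, so its values are no independent support. Its SEs were 0.458 for gl15 T001, 0.14 and 0.296 for rap2.7 T001 and T002, and 0.0735 for ids1 T001. For the genes gl15, rap2.7 and ids1, the SEs here were 0.43, 0.14 and 0.1 with runs as samples. DESeq2 on the 6 samples gave 0.62, 0.24 and 0.18. Whether the authors counted runs as samples was not tested, so their adjusted p-values may not reflect the spread between samples.

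For each member, the gene with the most similar log2 CPM over the 6 samples was sought among 20871 other genes with a mean of at least 1 CPM. The gene nearest to gl15 was Zm00001d023990 (Pearson r = 0.999), at 44.1 ± 11.6 CPM in the wild types and 18.3 ± 11 CPM in the mutants (SD, n = 3 each). gl15 had 768 genes with r above 0.95, and rap2.7 had 229. The gene nearest to rap2.7 was Zm00001d009014 (r = 0.996), at 121 ± 15.3 and 157 ± 8.82 CPM. ids1 had 10 genes with r above 0.95, led by Zm00001d024534 (r = 0.991), and sid1 had 7, led by Zm00001d053084 (r = 0.974). With 6 points and this many genes, high values of r arise readily, and the points share the libraries. These are descriptions without a test, and what the 4 nearest genes encode is not given here.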

How the data were processed

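Members and lists were chosen with earlier results of these data known. For each gene and run, the authors deposited an estimated count, a TPM value and an average transcript length in bases. They also deposited a transcript table whose columns, per the file headers, are a mean normalized signal, log2 fold change with SE, Wald score, p-value and adjusted p-value. The submitters' processing notes name STAR, Salmon and DESeq2. Versions, build and filters: not given in the sources used here. Libraries were strand-specific, per the labels.

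Counts of both runs (13123537 to 16520755 per run) were summed per sample and rounded. The test was edgeR 4.0.16 quasi-likelihood (R 4.3.3), two-sided, with TMM scaling, the expression filter by group and no covariates, Benjamini-Hochberg adjusted over 22772 genes with a threshold of 0.05. SEs are approximate. Log2 CPM used a prior count of 2. Alternatives used DESeq2 1.42.0, limma 3.58.1 (voom, and log2 TPM with pseudocounts 1 and 0.1), other scaling, filters, runs, a replicate block, a length offset and samples left out. Tests were checked on simulated data. The named genes are the 4 members and, per member, the gene with the highest Pearson r.

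The RefSeq reference for Zm-B73-REFERENCE-NAM-5.0 (49888 genes) held 0 of the table's IDs, so listed pathway and tissue marker genes could not be identified among the measured genes. It holds 3 of the 4 member names. Unused columns of sample values numbered 0. The median chi-square per gene was at most 0.716 between runs and at least 5.7 between samples, so no samples were merged.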

Additional observations from a re-analysis of the deposited data

How the results depend on the processing

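In the 25 alternatives, which reuse the same samples, the 4 genes kept their direction. Counting the 12 runs as samples put gl15 (−1.36), rap2.7 (0.78) and ids1 (−0.37) past the threshold. With 1 sample left out, by edgeR or DESeq2, log2 fold changes were −1.82 to −0.89 for gl15, 0.63 to 0.95 for rap2.7, −0.49 to −0.32 for ids1 and −0.45 to −0.26 for sid1; of these, only rap2.7 by DESeq2 without wild type 3 passed (0.94, adjusted p 0.00633; range over its 25 alternatives 3.07e-06 to 0.762). The count of 0 genes called by edgeR, with 2784 at an unadjusted p under 0.05, was 658 with DESeq2 on 6 samples and 5993 with DESeq2 on 12 runs. It was 0 in all edgeR and limma alternatives. In these, 1 to 3 of 4 members had an unadjusted p under 0.05, beside 5.78% to 15.7% of the genes tested in each. Without 1 sample DESeq2 called 185 to 1344 genes: leaving out wild type 2, 3 or 4 gave 185, 1344 and 309, and leaving out mutant 2, 3 or 4 gave 1064, 1138 and 428. The cause was not tested.

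The replicate block gave 0 calls, 1790 genes at an unadjusted p under 0.05, and log2 fold changes with adjusted p of −1.59 (0.648) for gl15, 0.81 (0.602) for rap2.7, −0.38 (0.648) for ids1 and −0.34 (0.688) for sid1. Between samples of the same number, deviations from the group means had correlations of 0.22, −0.27 and −0.18, so the numbers were not taken as pairs. Depth limits gl15 in mutant 4 most, at 33 counts.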

Other observations

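The TPM ratio of rap2.7 to ids1, chosen after its values were seen, does not depend on scaling between libraries. It was 0.904, 1.16 and 0.769 in wild types 2, 3 and 4 and 2.12, 2.23 and 2.04 in mutants 2, 3 and 4. The mutants were close to each other and clear of the wild types. This is common for rap2.7: in log2 CPM, its difference to 59.4% of the other tested genes also had groups that did not overlap, and for ids1 that share was 34%. The TPM ratio of rap2.7 to gl15 was 2.85, 5.4 and 1.93 in wild types 2, 3 and 4 and 10.4, 8.5 and 59.2 in mutants 2, 3 and 4, with mutant 4 far above the rest. The TPM ratio of ids1 to sid1 was 3.93, 2.86 and 2.92 in the wild types and 2.95, 3.46 and 3.8 in the mutants, and these ranges overlapped.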
